A study of Mus musculus with 141 samples.

Results

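Mcpt8-high and Mcpt8-low cells were compared within BMCP, the basophil/mast cell progenitors of mouse bone marrow. A BMCP was placed on the Mcpt8-high side with at least 50 CPM of Mcpt8, where CPM scales a cell's reads in nuclear-encoded genes to 1e+06, and on the Mcpt8-low side below that level. The cells were thus selected on their own Mcpt8 reads. Of 141 sequenced cells, 94 were BMCP and 89 of these passed the quality filter, which left 20 Mcpt8-high and 69 Mcpt8-low cells. Both sides came from 3 female C57BL/6 mice, had no genetic change or treatment named in the labels and passed the same sort, which took live cells without lineage markers or Sca1 that carried Kit and high integrin beta7 and CD16/32. The ages of the mice are not given, and no label ties a cell to a mouse, so each side was treated as 1 sample and every difference below is a description of its size, with no test. The series also holds 47 granulocyte/monocyte progenitors (GMP), of which 41 passed the filter.

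Basophils and mast cells are granulated effector cells of allergic and antiparasite responses, and both are activated through the high-affinity IgE receptor. They share progenitors in mouse bone marrow that carry Kit and integrin beta7. Mcpt8 encodes a granule serine protease that is used in mice to mark basophils, whereas chymases such as Cma1 and tryptases are proteases of mast cell granules. The comparison asks which other genes accompany Mcpt8 in a single progenitor.

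Mcpt8 set the sides, and its values are given only to describe them. It ranged over 81.5, 736 and 13003 CPM (lowest, median, highest) in Mcpt8-high cells and over 0, 2.73 and 31.3 CPM in Mcpt8-low cells. The cells just inside the threshold were BMCP replicates 66 and 35, at 81.5 and 103 CPM, and those just outside were replicates 1 and 31, at 31.3 and 31.1 CPM. The high side was graded: 9 cells held at least 1000 CPM, 11 cells held 50 to 1000 CPM, and 5 of these 11 were under 200 CPM. Among the Mcpt8-low cells, 15 had no Mcpt8 read, 52 had 1 to 9 reads and 2 had 10 or more. Whether such low counts come from the cell or from another library was not tested. Summed over cells, GMP held 137 CPM.

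Over all cells, the libraries of the sides were alike in median depth. The Mcpt8-high cells had a median of 932625 reads in nuclear-encoded genes (328280 to 1424770) and 5330 counted genes, and the Mcpt8-low cells had 819596 reads (96129 to 2416630) and 5455 genes. The median share of spike-in reads was 10.47% in Mcpt8-high and 11.3% in Mcpt8-low cells, and that of mitochondrial reads was 4.81% and 4.25%. The sides were uneven over the cell numbers: 14 Mcpt8-high cells and 30 Mcpt8-low cells had numbers 1 to 47, against 6 and 39 with numbers 48 to 94. Within numbers 1 to 47 the sides were not alike in depth, since the Mcpt8-low cells had the lower median. The shallowest Mcpt8-low cell there held 193015 reads and the shallowest Mcpt8-high cell 328280 reads. The labels do not say what the numbers stand for, so values within these 2 blocks of numbers are given for the main genes and where a named gene had opposite signs with a 2-fold difference in at least 1 block. 3 cells stood apart. Replicate 12, Mcpt8-high at 152 CPM, carried 10061 CPM of Prss34, 2352 CPM of Ctsg and 30.4 CPM of Gzmb, the lowest Gzmb of its side. Replicate 29 (Mcpt8-high) and replicate 44 (Mcpt8-low) were the only cells over 1000 CPM of Mki67. Several genes carried by basophils or mast cells were found throughout both sides, but not all. Fcer1a, the gene of the IgE-binding receptor chain, reached 50 CPM in 9 of 20 Mcpt8-high and 8 of 69 Mcpt8-low cells. Gzmb, Cpa3, Kit, Gata2 and Fcer1g were detected in 20 of 20 Mcpt8-high and 66 of 66 Mcpt8-low cells at a common depth of 200000 reads, and the sort's own integrin gene Itgb7 in 20 and 62. The neutrophil progenitor gene Elane was at 0.64 and 1.06 CPM in the sides and at 7307 CPM in GMP.

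The promoters of 3 protease genes are shown: Mcpt8, which defines the sides, Cma1, whose ratio was the largest by the naming rule, and Cpa3, whose median was higher in both grades of the Mcpt8-high side than in Mcpt8-low cells. Each run covers 250 bases before and 50 bases after the RefSeq start on GRCm38.p6 and reads 5′ to 3′ on the gene's strand. Capitals mark a GATA word, searched on both strands as the word AGATAA, the word AGATAG, the word TGATAA or the word TGATAG, and 29.8% of 32851 promoters of the same length hold at least 1.
Mcpt8, chr14:56085148-56085447, minus strand: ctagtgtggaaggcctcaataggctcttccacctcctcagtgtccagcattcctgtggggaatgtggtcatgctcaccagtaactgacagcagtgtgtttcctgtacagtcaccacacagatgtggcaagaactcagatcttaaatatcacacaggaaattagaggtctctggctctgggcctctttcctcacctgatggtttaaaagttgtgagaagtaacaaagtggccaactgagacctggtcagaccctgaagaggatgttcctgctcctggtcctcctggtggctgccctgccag
Cma1, chr14:55944626-55944925, minus strand: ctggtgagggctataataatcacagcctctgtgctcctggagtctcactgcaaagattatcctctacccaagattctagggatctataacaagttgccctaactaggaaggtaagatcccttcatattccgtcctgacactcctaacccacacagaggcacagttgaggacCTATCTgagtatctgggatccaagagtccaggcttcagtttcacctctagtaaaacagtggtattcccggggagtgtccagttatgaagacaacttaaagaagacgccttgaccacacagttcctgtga
Cpa3, chr3:20242132-20242431, minus strand: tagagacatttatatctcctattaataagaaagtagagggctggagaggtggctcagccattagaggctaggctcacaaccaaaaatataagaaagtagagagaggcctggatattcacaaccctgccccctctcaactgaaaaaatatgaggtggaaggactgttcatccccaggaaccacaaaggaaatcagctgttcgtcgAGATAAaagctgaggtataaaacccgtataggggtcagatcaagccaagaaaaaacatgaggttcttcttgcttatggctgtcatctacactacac
The Mcpt8 window had none of these words, and its RefSeq start lies 76 bases from the start in the GENCODE annotation. The Cma1 window had 1, AGATAG on the opposite strand at -79 from the start, and the Cpa3 window had 1, AGATAA at -46. The E-box words CATGTG and CACGTG, found in 20.4% of promoters, were in none of the 3. A word is a match of letters and no measured binding site.

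Over 13754 genes with at least 1 CPM in either side, Mcpt8 left out, 16.5% (2273 genes) were higher by 2-fold or more in Mcpt8-high BMCP and 28.5% (3924 genes) were lower by as much, on the scale log2(CPM + 1) of the summed reads. The median log2 ratio was -0.18. These shares are the background for the counts below. Among 2390 genes with at least 20 CPM that were detected in at least 50% of the cells of either side, 6.40% (153 genes) were higher and 6.23% (149 genes) lower by this margin, and the median was -0.02.

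**Figure D1:**
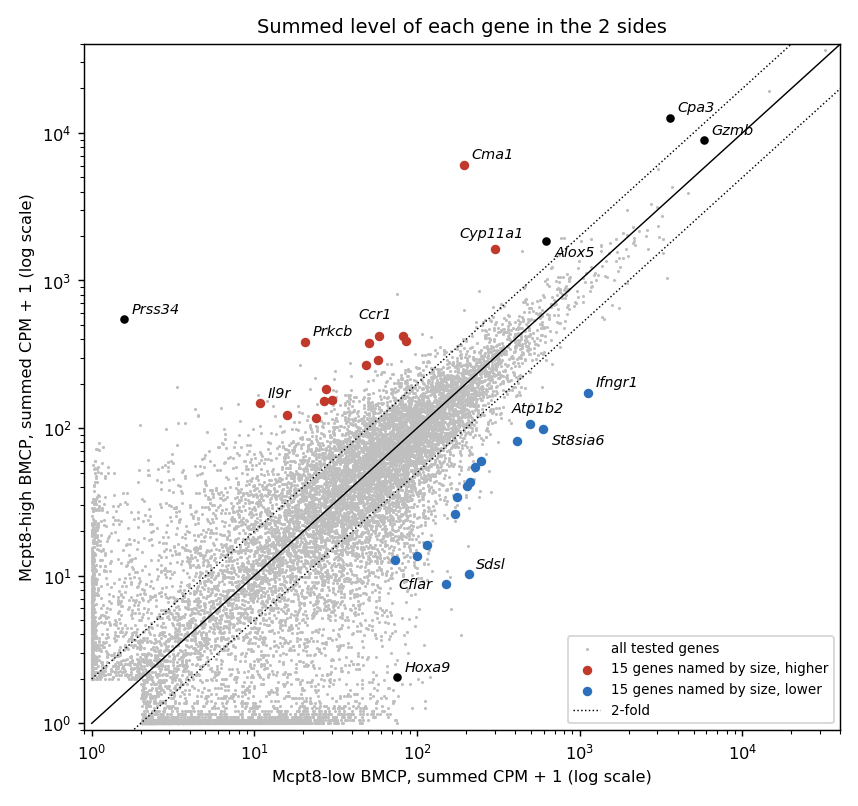
Summed CPM plus 1 of each tested gene in Mcpt8-high BMCP (y axis, log scale) against Mcpt8-low BMCP (x axis, log scale); red and blue dots are the 15 genes with the largest ratios each way under the naming rule and black dots are further genes of the text. Cma1 lies at 6075 CPM in Mcpt8-high against 193 CPM in Mcpt8-low cells, and Ifngr1 at 173 against 1121 CPM.

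Granule protease genes of mast cells were higher with Mcpt8, and the difference was graded by protease. Cma1, which encodes a chymase and lies near Mcpt8 on chromosome 14 (55941451 to 55944675, against 56082166 to 56085273 for Mcpt8, GRCm38), ranged over 0, 2433 and 34300 CPM in Mcpt8-high cells and over 0, 9.93 and 9263 CPM in Mcpt8-low cells. The summed level was 6075 CPM (6040 to 6110, exact Poisson limits for counting error only) in Mcpt8-high and 193 CPM (190 to 196) in Mcpt8-low BMCP, a log2 ratio of 4.97. The sides overlapped: 15 of 20 Mcpt8-high cells lay above the Mcpt8-low median, and 14 of 20 Mcpt8-high against 15 of 69 Mcpt8-low cells held at least 50 CPM. A single cell, replicate 33, gave 60.2% of the Mcpt8-low reads, and without it that side held 77.9 CPM. The log2 ratio was 3.82 within numbers 1 to 47 and 6.07 within numbers 48 to 94.

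Cpa3, the mast cell carboxypeptidase that basophils also carry, was present in every cell and higher on the Mcpt8-high side. It ranged over 1834, 11185 and 30931 CPM in Mcpt8-high cells and over 94.0, 1905 and 23464 CPM in Mcpt8-low cells. Of the Mcpt8-high cells, 18 of 20 lay above the Mcpt8-low median. The log2 ratio of the sums (12697 and 3567 CPM) was 1.83, with 1.66 within numbers 1 to 47 and 2.03 within numbers 48 to 94. Gzmb, which encodes granzyme B, differed less, at 30.4, 8300 and 22649 CPM in Mcpt8-high and 161, 4111 and 17931 CPM in Mcpt8-low cells, a log2 ratio of 0.62. The proteases of mature mast cells were near 0 on both sides: Mcpt2 and Mcpt4 had no read, Mcpt1 was at 0.11 CPM in Mcpt8-high cells with no read in Mcpt8-low cells, and Tpsab1 had no read in Mcpt8-high cells. The tryptase gene Tpsb2 was at 52.5 and 0.0459 CPM, with all of its Mcpt8-high reads in replicate 36, so that its log2 ratio was 6.21 within numbers 1 to 47 and -0.031 within numbers 48 to 94.

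Of the mast cell list, 8 of 18 genes reached 1 CPM on a side, and 7 of these 8 were at least 2-fold higher in Mcpt8-high cells, with a median log2 ratio of 3.33. With Cma2, which had no Mcpt8-low read, at its bound the median was 4.03. These 8 passed the filter mostly through the side where they were high, so the count says little of the 10 others. Of the 4 that passed the stricter filter, 3 were higher and none lower by 2-fold or more, and their median was 1.43. Among the 7, Tpsb2 and Tpsg1 had 100% and 99.9% of their Mcpt8-high reads in replicate 36. Rab27b, a GTPase of granule release, was at 314 and 106 CPM in Mcpt8-high and Mcpt8-low cells. Mitf, a transcription factor of mast cells, was at 148 and 58.9 CPM. Adora3, an adenosine receptor, was at 61.8 and 6.39 CPM, or 27.7 CPM in Mcpt8-high cells without replicate 52.

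Genes for the granule's proteoglycan and its enzymes were partly higher. Serglycin, the core protein to which proteases bind in the granule, is encoded by Srgn and was near level, at 1821, 3975 and 6750 CPM in Mcpt8-high and 294, 3305 and 7779 CPM in Mcpt8-low cells (log2 ratio 0.22). Ndst2 and Hs3st1, which sulfate heparin chains, were at 627 and 354 CPM in Mcpt8-high against 193 and 137 CPM in Mcpt8-low BMCP. Of the Mcpt8-high cells, 17 of 20 lay above the Mcpt8-low median of Ndst2, 4.88 CPM. Ctsd, which encodes the lysosomal protease cathepsin D, was at 1937 and 767 CPM. Of the 23 measured granule and proteoglycan genes, 9 were higher and 1 lower by 2-fold or more in Mcpt8-high cells, and the median was 0.40. Among the 14 of them that passed the stricter filter, 5 were higher by this margin and none lower.

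**Figure D2:**
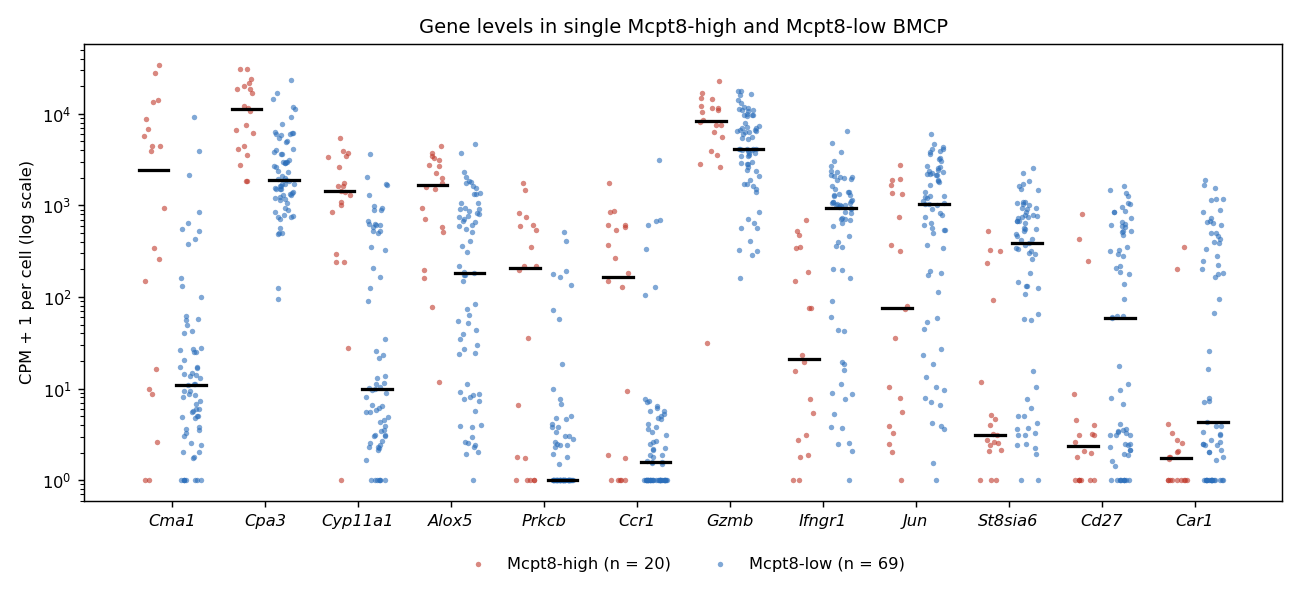
CPM plus 1 per cell (y axis, log scale) for 12 genes (x axis), Mcpt8-high BMCP in red (n = 20) left of Mcpt8-low BMCP in blue (n = 69), with the median of each side as a black bar. The medians of Cyp11a1 are 1418 CPM in Mcpt8-high and 8.94 CPM in Mcpt8-low cells, those of Ifngr1 are 20.3 and 928 CPM, and the clouds overlap for every gene shown.

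Most basophil genes were higher in summed reads as well. Cyp11a1, a steroid-forming enzyme on the basophil list, ranged over 0, 1418 and 5482 CPM in Mcpt8-high cells and over 0, 8.94 and 3674 CPM in Mcpt8-low cells. Nearly the whole high side carried it, since 18 of 20 Mcpt8-high cells held at least 50 CPM against 24 of 69 Mcpt8-low cells. The sums were 1635 and 301 CPM, a log2 ratio of 2.44, with 3.13 within numbers 1 to 47 and 1.51 within numbers 48 to 94. Il4, the cytokine that basophils release on activation, had a median of 43.8 CPM in Mcpt8-high and 0 CPM in Mcpt8-low cells and sums of 51.4 and 22.5 CPM. Cd200r3, a receptor of basophils and mast cells, was at 61.4 and 3.93 CPM, or 1.17 CPM in Mcpt8-low cells without replicate 50, and 6 of 20 against 2 of 69 cells held at least 50 CPM.

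Prss34, the other protease used as a basophil marker, did not follow Mcpt8 across cells. It summed to 544 CPM in Mcpt8-high and 0.581 CPM in Mcpt8-low BMCP, but replicate 12 gave 99.9% of the Mcpt8-high reads, and without it the level was 0.616 CPM. Itga2, the CD49b chain of the basophil surface, was at 14.4 and 14.3 CPM, with log2 ratios of -2.21 within numbers 1 to 47 and 1.72 within numbers 48 to 94. Il6 was at 214 and 288 CPM. Ifitm1, an interferon-inducible membrane protein, was lower, at 3.26, 85.98 and 8232 CPM in Mcpt8-high cells against 4.98, 2511 and 13322 CPM in Mcpt8-low cells. Across the 18 measured basophil genes, 11 were higher and 1 lower by 2-fold or more in Mcpt8-high cells, and the median was 1.30. Without replicate 12 the median was 0.99. Over the 18 genes it was 1.45 within numbers 1 to 47 and 0.61 within numbers 48 to 94. Of the 9 that passed the stricter filter, 5 were higher and 1 lower by this margin. Among the 11, Cd200r4 had 99.7% of its Mcpt8-high reads in replicate 3. Cebpa had log2 ratios of 1.29 within numbers 1 to 47 and -3.32 within numbers 48 to 94. Ccl3, Ccl4 and Csf1 recur among the cytokine and chemokine genes below.

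Some chemokine genes were high in subsets of the Mcpt8-high cells and others were not. Of 15 measured cytokine and chemokine genes, 7 were higher and 3 lower by 2-fold or more, with a median log2 ratio of 0.96 over all cells, 0.92 within numbers 1 to 47 and -0.062 within numbers 48 to 94. Ccl3 ranged over 0, 47.4 and 3475 CPM in Mcpt8-high cells and over 0, 0 and 342 CPM in Mcpt8-low cells, and replicate 15 gave 51.5% of its Mcpt8-high reads. The log2 ratios were 4.22 within numbers 1 to 47 and 0.93 within numbers 48 to 94. Ccl4 was at 433 and 106 CPM, and Ccl9 at 807 and 74.2 CPM, or 33.5 CPM in Mcpt8-low cells without replicate 71. Ccl9 reached 50 CPM in 9 of 20 Mcpt8-high and 11 of 69 Mcpt8-low cells. Csf1, the macrophage growth factor, was at 134 and 3.29 CPM, with 68.9% of the Mcpt8-high reads in replicate 29. The 3 lower genes were Ccl6, at 0.21 and 13.4 CPM, Il18, at 0.053 and 6.07 CPM, and Ccl5, with no Mcpt8-high read and 1.41 CPM in Mcpt8-low cells.

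The chains of the IgE receptor differed from each other. Fcer1a encodes the chain that binds IgE, Ms4a2 the signal-amplifying beta chain and Fcer1g the gamma chain shared with other Fc receptors. Fcer1a ranged over 0, 3.61 and 2392 CPM in Mcpt8-high cells and over 0, 0 and 1217 CPM in Mcpt8-low cells. It was therefore absent or low in most cells of both sides and high in a part of each, with at least 50 CPM in 9 of 20 and 8 of 69 cells. Its sums of 474 and 26.8 CPM gave a log2 ratio of 4.09, which rested on numbers 1 to 47 (3.76). Within numbers 48 to 94 the ratio was -1.31, where 1 Mcpt8-high and 4 Mcpt8-low cells reached 50 CPM. Fcer1g was at 294, 1891 and 3458 CPM in Mcpt8-high and 160, 895 and 3313 CPM in Mcpt8-low cells, with 18 of 20 Mcpt8-high cells above the Mcpt8-low median and log2 ratios of 0.89 and 0.87 in the 2 blocks of numbers. Ms4a2 was at 879 and 752 CPM over all cells, but its direction turned with the block, with log2 ratios of 1.07 within numbers 1 to 47 and -0.73 within numbers 48 to 94.

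Most genes of signalling below that receptor differed by less than 2-fold in sums over all cells. Of 16 measured, 3 were higher and none lower by 2-fold or more in Mcpt8-high cells, with a median log2 ratio of 0.19. The exception of large size was Prkcb, the protein kinase C isoform of immune cell signalling, at 0, 205 and 1769 CPM in Mcpt8-high and 0, 0 and 510 CPM in Mcpt8-low cells. It reached 50 CPM in 11 of 20 Mcpt8-high and 8 of 69 Mcpt8-low cells, and its log2 ratio was 4.23 over all cells, 3.20 within numbers 1 to 47 and 5.16 within numbers 48 to 94. The kinase gene Lyn was at 177 CPM in Mcpt8-high and 153 CPM in Mcpt8-low BMCP. Syk, the kinase next to the receptor, summed to 172 and 168 CPM over opposite differences: it was at 227 and 85.1 CPM within numbers 1 to 47 and at 69.3 and 203 CPM within numbers 48 to 94. The adaptors Lat and Lat2 were at 346 and 1027 CPM against 285 and 627 CPM, Plcg1 at 557 against 339 CPM, and the inhibitory phosphatase gene Inpp5d at 527 against 283 CPM.

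Genes for lipid mediators and amines diverged. Alox5, the first enzyme of leukotriene synthesis, was at 10.8, 1655 and 4499 CPM in Mcpt8-high cells and 0, 182 and 4712 CPM in Mcpt8-low cells. It was at or above 50 CPM in 19 of 20 Mcpt8-high and 43 of 69 Mcpt8-low cells, and its log2 ratio of 1.58 was 1.76 and 1.73 in the 2 blocks of numbers. Its partner Alox5ap was at 218 and 137 CPM, with log2 ratios of 0.83 within numbers 1 to 47 and -1.54 within numbers 48 to 94. Lta4h, which leads to leukotriene B4, was at 144 and 108 CPM, and Hpgds, the prostaglandin D2 synthase, at 177 and 63.7 CPM. The amine genes were lower in sums over all cells: Hdc, which forms histamine, was at 186 and 253 CPM, or 103 CPM in Mcpt8-high cells without replicate 12, with log2 ratios of 0.37 within numbers 1 to 47 and -3.17 within numbers 48 to 94, and Slc18a2, the vesicular monoamine transporter, at 769 and 973 CPM. The histamine receptor gene Hrh4 was at 109 and 16.4 CPM. Of 13 measured mediator genes, 5 were higher and 2 lower by 2-fold or more in Mcpt8-high cells, and the median was 0.67. Over the same genes it was 0.73 within numbers 1 to 47 and -0.72 within numbers 48 to 94.

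Receptors for cytokines and chemokines included several of the largest ratios. Il9r, the receptor chain for interleukin 9, was at 0, 14.3 and 687 CPM in Mcpt8-high and 0, 0 and 475 CPM in Mcpt8-low cells. It reached 50 CPM in 8 of 20 and 3 of 69 cells, and the sums were 147 and 9.87 CPM. Ccr1, a receptor for Ccl3 and related chemokines, was at 0, 166 and 1751 CPM against 0, 0.57 and 3118 CPM, with 12 of 20 Mcpt8-high and 7 of 69 Mcpt8-low cells at 50 CPM or more. Il4ra, the interleukin 4 receptor chain, was at 277 and 37.8 CPM, or 23.5 CPM in Mcpt8-low cells without replicate 84. Il1rl1, the interleukin 33 receptor, was at 522 and 253 CPM, Csf2rb2 at 657 and 291 CPM, Csf2rb at 717 and 446 CPM, and the interleukin 3 receptor chain Il3ra at 83.4 and 37.01 CPM, or 54.3 CPM in Mcpt8-high cells without replicate 12. Csf2rb and Csf2rb2 are near-identical genes, so the split of reads between them is uncertain. Kit, the receptor for stem cell factor, was at 398, 1400 and 4996 CPM in Mcpt8-high and 9.48, 898 and 4356 CPM in Mcpt8-low cells, while the common gamma chain Il2rg was level at 866 and 843 CPM. Of 19 measured cytokine receptor genes, 7 were higher and 4 lower by 2-fold or more in Mcpt8-high cells, with a median of 0.68.

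The naming rule took 15 genes each way by size of ratio. A gene needed 20 CPM on its higher side, detection in 50% of that side's cells, less than 50% of the reads from any 1 cell, and the same direction in mean, median and both blocks of numbers. Towards Mcpt8-high these included, beside Cma1, Prkcb, Il9r, Ccr1 and Cyp11a1, the genes Rbm27, Tmem273, Npl, Rgs10, Mctp1, Ero1l, Gnaz and ENSMUSG00000089672. This last identifier had no symbol or position in the annotation used here. Mctp1, a calcium-binding membrane protein, was at 0, 206 and 994 CPM in Mcpt8-high cells against 0, 1.06 and 582 CPM in Mcpt8-low cells, and 18 of 20 Mcpt8-high cells lay above the Mcpt8-low median. Tmem273, a membrane protein, was at 422 and 57.02 CPM. Rgs10 and Gnaz, a regulator and a subunit of G protein signalling, were at 152 and 389 CPM against 25.7 and 83.9 CPM. Npl, which breaks down sialic acid, was at 184 and 26.5 CPM. Ero1l, which drives disulfide formation in secreted proteins, was at 117 and 22.9 CPM, or 66.8 CPM in Mcpt8-high cells without replicate 52.

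Of the 15 genes named towards Mcpt8-low cells, the most abundant was Ifngr1, the ligand-binding chain of the interferon gamma receptor. Ifngr1 ranged over 0, 20.3 and 694 CPM in Mcpt8-high cells and over 0, 928 and 6522 CPM in Mcpt8-low cells. No Mcpt8-high cell reached the Mcpt8-low median, yet the sides overlapped below it, since 53 of 69 Mcpt8-low and 9 of 20 Mcpt8-high cells held at least 50 CPM. The sums of 173 and 1121 CPM gave a log2 ratio of -2.69, with -2.52 and -2.82 in the 2 blocks of numbers. Ifngr1 in GMP was at 847 CPM. St8sia6, a sialyltransferase, was at 0, 2.14 and 531 CPM in Mcpt8-high and 0, 387 and 2587 CPM in Mcpt8-low cells, and 1 of 20 Mcpt8-high cells lay above the Mcpt8-low median. It was detected in 6 of 20 Mcpt8-high cells (30%, 11.9 to 54.3, exact Clopper-Pearson limits for counting error only) and 52 of 66 Mcpt8-low cells (78.8%, 66.98 to 87.9) at equal depth. Atp1b2, a sodium pump subunit, was at 106 and 493 CPM, or 37.8 CPM in Mcpt8-high cells without replicate 58.

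The other genes named towards Mcpt8-low cells were Sdsl, Cflar, Dgkz, Rnf111, Pde3b, Auts2, Rasa1, Gm17590, F2r, Ssr3, Zkscan3 and Ak3. Cflar, an inhibitor of death receptor signalling, was at 7.79 and 149 CPM and was detected in 3 of 20 Mcpt8-high and 40 of 66 Mcpt8-low cells. Sdsl, a relative of serine dehydratase, was at 9.22 and 206 CPM and was detected in 2 and 40 cells. Dgkz, which removes the second messenger diacylglycerol, was at 12.5 and 99.4 CPM. F2r, the thrombin receptor, was at 39.8 and 201 CPM, Rasa1, a brake on Ras, at 33.1 and 176 CPM, and Pde3b, a phosphodiesterase, at 25.2 and 170 CPM. For Sdsl, Dgkz, Gm17590, F2r, Atp1b2 and Zkscan3, 50.5% to 77.6% of the Mcpt8-high reads lay in 1 cell, and without that cell each ratio was further below 0, so these levels describe a few cells within a side that otherwise held little.

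Erythroid genes were mostly on the Mcpt8-low side. Car1, the carbonic anhydrase of early erythroid and related progenitors, was at 0, 0.74 and 347 CPM in Mcpt8-high and 0, 3.36 and 1888 CPM in Mcpt8-low cells. It reached 50 CPM in 2 of 20 Mcpt8-high and 29 of 69 Mcpt8-low cells, and 1 of the 2, replicate 29, gave 71.1% of the Mcpt8-high reads. Klf1, the erythroid Kruppel-like factor, was at 8.91 and 80.7 CPM, with 97.0% of the Mcpt8-high reads in replicate 62. The erythropoietin receptor gene Epor had no read on the Mcpt8-high side, which allows up to 0.159 CPM, and was at 8.09 CPM on the Mcpt8-low side, 3.89 CPM without replicate 68. Of 9 measured erythroid genes, 5 were lower and none higher by 2-fold or more in Mcpt8-high cells, with a median of -2.94. The summed level of the 16 listed genes per cell overlapped, at 2.12, 461 and 2026 CPM in Mcpt8-high and 2.44, 770 and 5212 CPM in Mcpt8-low cells, since Blvrb, Tfrc and Car2 were closer, at 222, 64.99 and 169 CPM against 323, 48.04 and 265 CPM. The log2 ratio of Tfrc was -1.16 within numbers 1 to 47 and 1.62 within numbers 48 to 94.

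Several genes of stem and multipotent progenitors were lower as well. Cd27, a receptor that marks early progenitors, was at 0, 1.34 and 796 CPM in Mcpt8-high and 0, 58.5 and 1611 CPM in Mcpt8-low cells, with 3 of 20 and 35 of 69 cells at 50 CPM or more. The homeobox gene Hoxa9 was at 1.06 and 74.5 CPM, and no Mcpt8-high cell but 14 Mcpt8-low cells reached 50 CPM. Sox4 was at 76.2 and 195 CPM, and the surface gene Cd48 at 106 and 197 CPM. Cdk6, a kinase of cell cycle entry that is not on the stem and multipotent progenitor list, was at 965 and 1959 CPM. Meis1 and Cd34 were not lower, at 464 and 734 CPM in Mcpt8-high against 359 and 459 CPM in Mcpt8-low BMCP, and Angpt1 was at 974 and 1176 CPM. Of the 14 measured genes of the list, 7 were lower and 1 higher by 2-fold or more in Mcpt8-high cells, and the list had a median of -1.08. Egfl7 among them had no Mcpt8-high read and passed the filter through the Mcpt8-low side only. Of the 7 that passed the stricter filter, 2 were lower and none higher by this margin, and their median was -0.34.

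Immediate early genes, the AP-1 and related factors switched on within minutes of stimulation, were lower on the Mcpt8-high side mainly in numbers 48 to 94. Jun was at 0, 75.7 and 2761 CPM in Mcpt8-high and 0, 1029 and 6087 CPM in Mcpt8-low cells, a log2 ratio of -1.26, with -0.63 within numbers 1 to 47 and -2.81 within numbers 48 to 94. Fos was at 551 and 1417 CPM over all cells, but its ratio was 0.41 within numbers 1 to 47 and -3.53 within numbers 48 to 94, and replicate 27 gave 54.5% of the Mcpt8-high reads. Klf6 was at 188 and 583 CPM, Dusp1 at 145 and 502 CPM, Egr1 at 80.05 and 315 CPM, Junb at 303 and 420 CPM, and Ier2 at 532 and 809 CPM. Junb had log2 ratios of 0.73 within numbers 1 to 47 and -1.83 within numbers 48 to 94. The list's median over 15 measured genes was -0.60, with 0.51 within numbers 1 to 47 and -2.15 within numbers 48 to 94, so its direction depended on the block. The interferon response genes had a median of -1.96 over 12, with 8 lower and none higher by 2-fold or more, and over the same genes -0.29 within numbers 1 to 47 and -4.19 within numbers 48 to 94. Isg15 and Mx1 among them had no Mcpt8-high read and passed the filter through the Mcpt8-low side only. Of the 3 that passed the stricter filter, 1 was lower by this margin, and their median was -0.34.

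**Figure D3:**
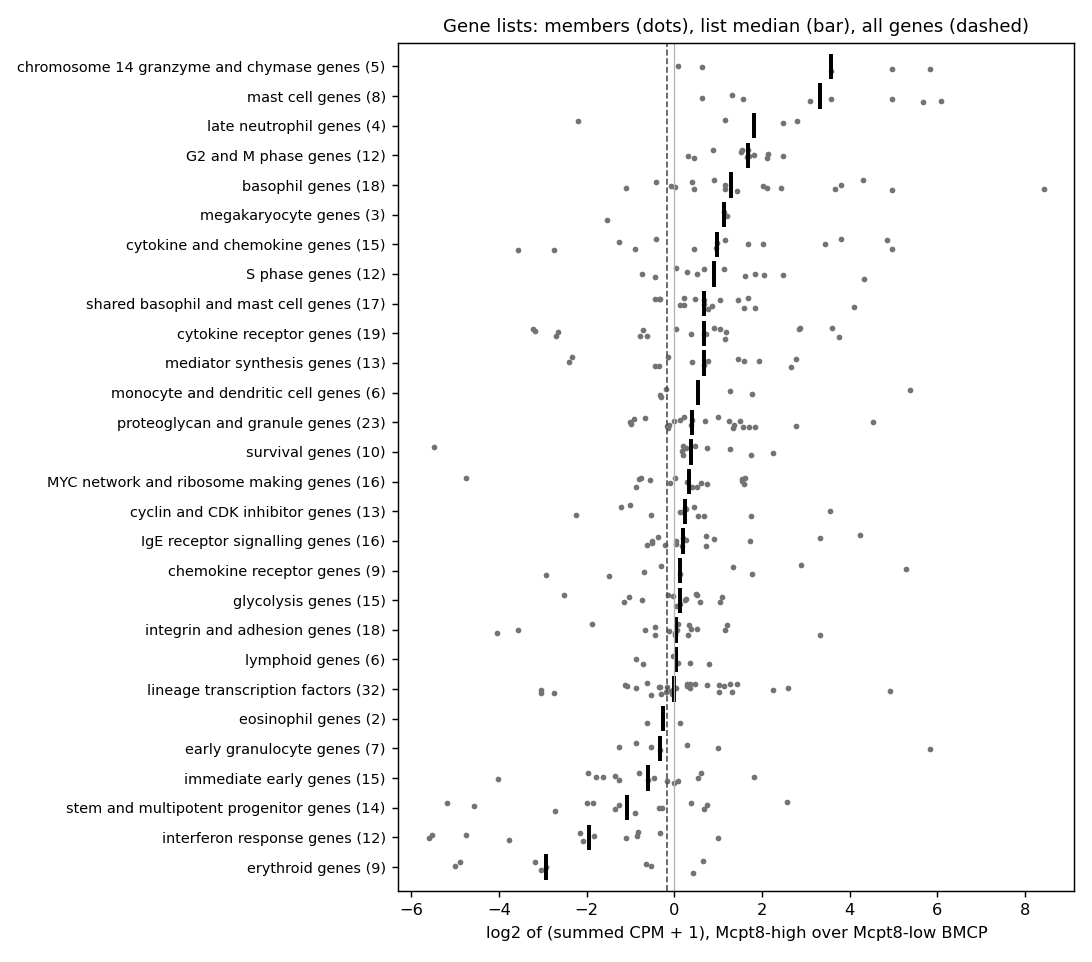
Log2 of summed CPM plus 1, Mcpt8-high over Mcpt8-low BMCP (x axis), for 28 gene lists (y axis, number of measured genes in brackets); dots are genes, black bars list medians and the dashed line the median of all tested genes at -0.18. The mast cell genes have a median of 3.33 and the erythroid genes one of -2.94, and members of most lists spread over both signs.

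Lineage transcription factors showed no common direction. Gata2, which both lineages need, was at 404, 1660 and 4107 CPM in Mcpt8-high cells and 203, 1954 and 5467 CPM in Mcpt8-low cells, a log2 ratio of -0.33. Runx1 was at 800 and 817 CPM, Ikzf1 at 1042 and 858 CPM, and Gata1 at 185 and 133 CPM. Id2, whose protein blocks DNA binding by E proteins, was higher, at 3.93, 1599 and 5774 CPM in Mcpt8-high and 1.24, 356 and 3724 CPM in Mcpt8-low cells, with 18 of 20 Mcpt8-high cells above the Mcpt8-low median and log2 ratios of 1.39 and 1.13 in the 2 blocks of numbers. The myeloid factor gene Spi1 was at 210 and 95.2 CPM, with log2 ratios of 1.54 within numbers 1 to 47 and -0.13 within numbers 48 to 94, and Lmo4 at 1964 and 3050 CPM. Of 32 measured factors, 9 were higher and 5 lower by 2-fold or more in Mcpt8-high cells, and the median was 0.00.

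Markers of other cell types did not follow 1 direction. The early granulocyte genes had a median of -0.33 over 7 measured, with Mpo at 24.4 and 11.8 CPM and Prtn3 at 10.3 and 15.5 CPM. Within numbers 1 to 47 the log2 ratios of Mpo and Prtn3 were 2.67 and 3.41, and within numbers 48 to 94 they were -1.60 and -3.83. Replicate 12 gave 85.9% of the Mcpt8-high reads of Mpo, 93.3% of Prtn3 and 66.8% of Ctsg, and without it Ctsg was at 66.6 CPM in Mcpt8-high against 2.34 CPM in Mcpt8-low cells. In GMP, Mpo was at 31492 CPM and Ctsg at 6619 CPM. Ctsg was at 50 CPM or more in 5 of 20 Mcpt8-high and 1 of 69 Mcpt8-low cells. Ncf1, a subunit of the phagocyte oxidase on the late neutrophil list, was at 214 and 29.96 CPM, or 18.4 CPM in Mcpt8-low cells without replicate 67. The class II gene H2-Ab1 was at 42.3 CPM in Mcpt8-high cells, detected in 4 of 20, and at 0.0459 CPM in Mcpt8-low cells, detected in 0 of 66. The monocyte and dendritic cell list had a median of 0.54 over 6, the lymphoid list 0.03 over 6, the eosinophil list -0.25 over 2, the late neutrophil list 1.82 over 4 and the megakaryocyte list 1.14 over 3. In this last list Itga2b, the CD41 chain, was at 523 and 228 CPM, whereas Pf4 had no Mcpt8-high read. The median of the monocyte and dendritic cell list was 0.73 within numbers 1 to 47 and -0.88 within numbers 48 to 94. Per cell, the summed early granulocyte markers ranged over 3.58, 260 and 3088 CPM in Mcpt8-high and 2.33, 99.4 and 1503 CPM in Mcpt8-low cells, and the summed late neutrophil markers over 0, 27.6 and 1615 CPM against 0, 0.41 and 943 CPM. The part of such cells in the differences above was not tested.

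Cell cycle genes could not be ordered between the sides. The 12 S phase genes had a median of 0.91, but the 3 that passed the stricter filter were level or lower in Mcpt8-high cells, with Mcm6 at 161 and 268 CPM, Pcna at 70.5 and 95.4 CPM and Mcm7 at 124 and 120 CPM. The log2 ratio of Pcna was -1.04 within numbers 1 to 47 and 0.32 within numbers 48 to 94. The 12 genes of G2 and M phase had a median of 1.68 that rested on single cells: the summed level per cell had a median of 2.07 CPM in Mcpt8-high and 4.18 CPM in Mcpt8-low cells and maxima of 9149 and 11500 CPM. Mki67, the proliferation marker, was at 121 and 33.8 CPM. Replicate 29 gave 87.98% of its Mcpt8-high reads and replicate 44 gave 95.7% of its Mcpt8-low reads, and without these cells it was at 15.7 and 1.48 CPM.

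Grades of Mcpt8 within the high side were accompanied by grades of some other granule and basophil genes but not of others. They are given here without a test since the grades were cut from Mcpt8 itself. Cpa3 ranged over 10789, 20177 and 30931 CPM in the 9 cells with at least 1000 CPM of Mcpt8. In the 11 cells with 50 to 1000 CPM of Mcpt8 it ranged over 1834, 4445 and 16959 CPM, and the Mcpt8-low median was 1905 CPM. The same order of medians held for Cma1 (6897, 147 and 9.93 CPM), Cyp11a1 (2649, 1087 and 8.94 CPM), Alox5 (3095, 706 and 182 CPM) and Il1rl1 (842, 192 and 93.3 CPM). Other genes differed mainly between the sides: Gzmb had medians of 8517 and 8083 CPM in the 2 grades against 4111 CPM in Mcpt8-low cells, and Ifngr1 of 22.3 and 18.3 CPM against 928 CPM. Ccr1 was highest in the middle grade, with medians of 126, 583 and 0.57 CPM. The same held for Il4 (29.6, 59.8 and 0 CPM), Cd69 (0, 57.2 and 0 CPM), Mitf (2.09, 71.6 and 1.05 CPM) and Srgn (3899, 4286 and 3305 CPM).

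St8sia6 did not exceed 10.8 CPM in any of the 9 cells at 1000 CPM or more of Mcpt8, and reached 531 CPM in the middle grade. Gm17590 and Ssr3 likewise had maxima of 3.56 and 1.35 CPM in these 9 cells, against 847 and 354 CPM in the middle grade and 6746 and 856 CPM in Mcpt8-low cells. Cd200r3 had a median of 68.6 CPM in the 9 cells and 0 CPM in the other grades.

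**Figure D4:**
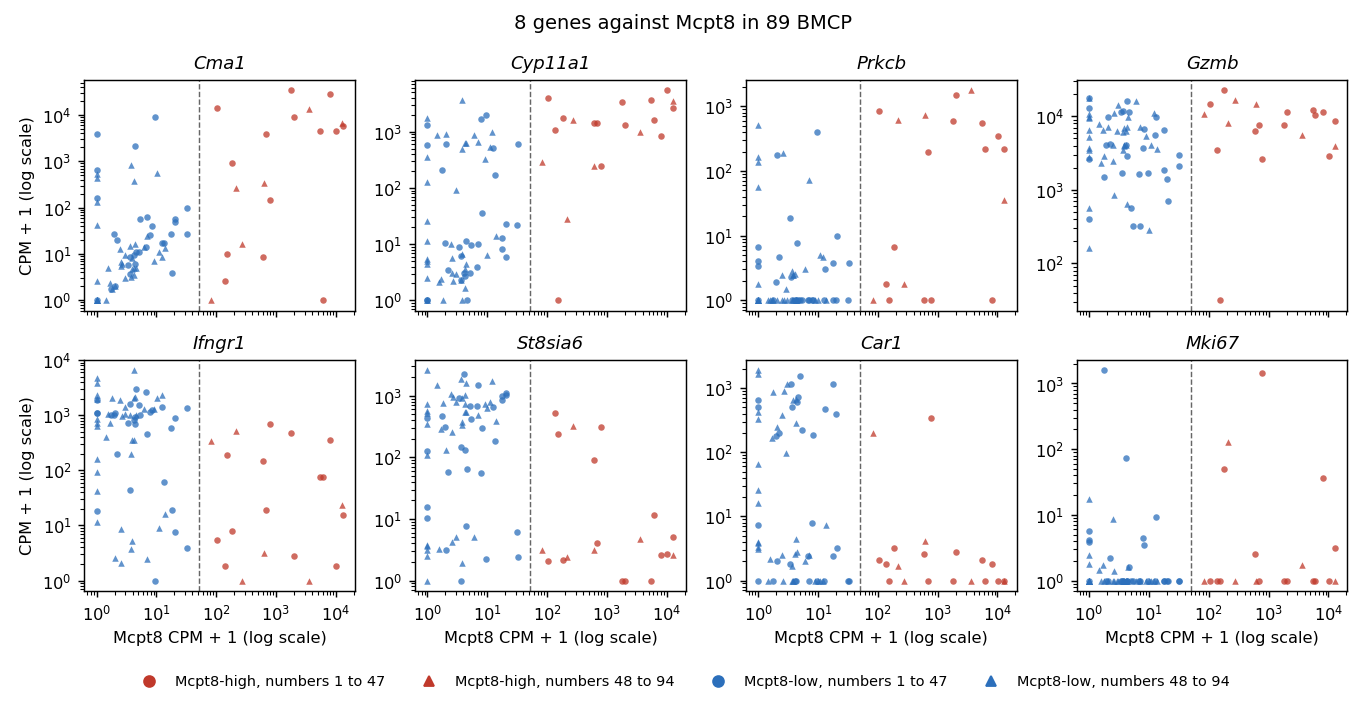
CPM plus 1 of 8 genes (y axes, log scale) against CPM plus 1 of Mcpt8 (x axes, log scale) in 89 BMCP, red for Mcpt8-high and blue for Mcpt8-low cells, circles for numbers 1 to 47 and triangles for numbers 48 to 94, with the 50 CPM threshold dashed. All 9 cells with at least 1000 CPM of Mcpt8 hold at least 848 CPM of Cyp11a1 and at most 10.8 CPM of St8sia6.

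A view of the whole transcriptome with Mcpt8 left out placed the sides apart along 1 axis with overlap. Over the 1000 most variable genes, the second principal component, which held 2.96% of the variance, had scores of -19.3, 22.5 and 47.8 in Mcpt8-high and -38.7, -7.95 and 37.5 in Mcpt8-low cells. Of the Mcpt8-high cells 18 of 20 lay above the Mcpt8-low median, and 4 of 69 Mcpt8-low cells lay above the Mcpt8-high median. The medians were 21.6 and -8.98 within numbers 1 to 47 and 22.6 and -7.30 within numbers 48 to 94. Across the 89 cells, the component had a rank correlation of 0.06 with depth, given as a description. Its leading genes were Cyp11a1, Atp8b5, Ndst2 and Cma1 at the positive end and St8sia6, Jun, Gm17590 and Pdgfrb at the negative end, so it repeats genes named above from the same cells. The first component, with 3.33% of the variance, had medians of 7.91 and -2.90 and a rank correlation of -0.67 with the number of genes counted.

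**Figure D5:**
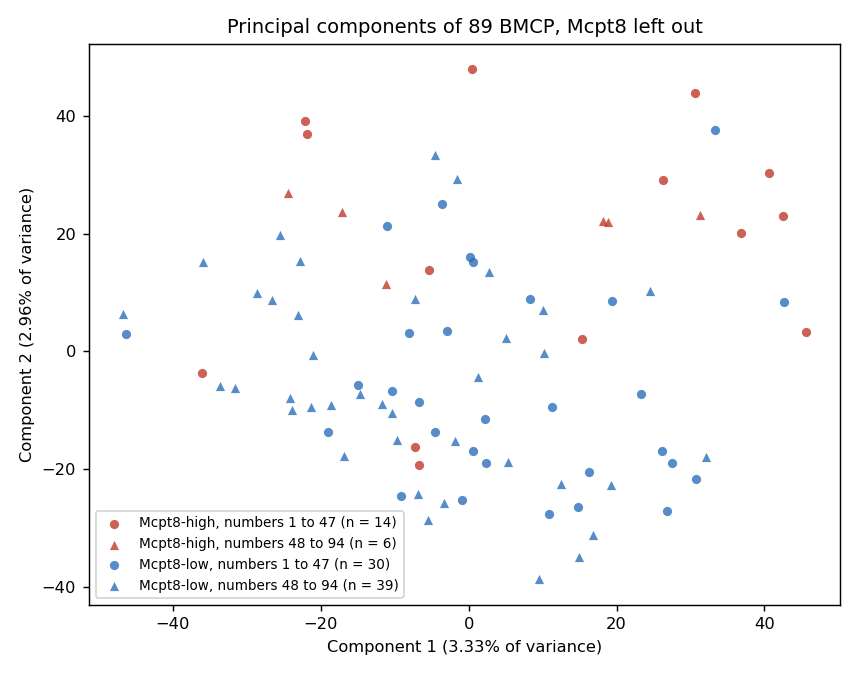
Scores of 89 BMCP on the first principal component (x axis, 3.33% of the variance) and the second (y axis, 2.96%), computed without Mcpt8; red is Mcpt8-high, blue is Mcpt8-low, and shapes give the block of numbers. Mcpt8-high cells have a median of 22.5 on the second component and Mcpt8-low cells one of -7.95, with both blocks mixed.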

How the data were processed

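Polyadenylated RNA of single sorted cells was amplified with the Smart-seq2 type protocol named in the labels, over 23 PCR cycles, with ERCC spike-ins and single-end reads of 50 bases. The authors deposited raw read counts for each gene in each cell, made with GSNAP and HTSeq 0.5.3p3 on mm10, per the submitters' processing notes. Their annotation release was not given in the sources used here. No label mentions molecular identifiers, so a read is not a molecule, and the kit does not mark strand, so overlapping antisense genes cannot be told apart.

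Unaligned reads (30.4% of all rows' reads in kept BMCP), reads outside genes (17.6%) and ambiguous reads (3.77%) stayed out of all totals. GENCODE vM21 (GRCm38) gave symbols to 45106 of 46078 gene rows. Cells were kept with at least 50000 nuclear-encoded reads, at most 10% mitochondrial and at most 50% spike-in reads. No 2 columns held identical counts. Cells were sorted 1 to a well, and no doublet caller was used. Summed counts were scaled to CPM, and ratios are log2(CPM + 1), Mcpt8-high over Mcpt8-low. For detection, cells were thinned to 200000 reads, which left out 3 Mcpt8-low cells, and a gene counted as detected at 2 reads. Limits are at 95%. The floor for no read is 3 counts over a side.

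Some genes chosen by the naming rule, and many listed genes, are not reported here by name. The members, the 28 gene lists and the rules were chosen with earlier results of these data known. Because cells are not replicates and no label ties them to mice, no test was run. The steps were tested on simulated data. Alternatives varied the weight of cells, scaling, pseudocount, gene and cell filters, depth, the Mcpt8 threshold, the 2 blocks of cell numbers and single cells. The work used pandas 2.3.3, numpy 2.4.6, scipy 1.17.1 and matplotlib 3.10.9 under Python 3.11.15. Promoter sequences are from RefSeq on GRCm38.p6, and all 3 genes looked up matched by symbol.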

Additional observations from a re-analysis of the deposited data

How the results depend on the processing

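The sides are 1 sample each, read counts are not molecules and no mouse can be told from another, so these values describe the sequenced cells and not a population. The naming rule asked for 1 direction in means, medians and both blocks, so the signs of its 30 genes under those alternatives are no sign of stability, and 4 of the 30 fell under 2-fold in at least 1 alternative. No paired analysis was possible because no label ties a cell to a mouse, and no result comes from a test.

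With the median of the cells' CPM in place of sums, 1148 genes were at least 2-fold higher and 823 lower. The medians of the basophil, S phase and G2 and M phase lists were then 0.00, 0.00 and 0.00. Those of the interferon response and survival lists were 0.00 as well. A pseudocount of 10 CPM gave 1190 and 1835 genes, genes at 10 CPM or more gave 2341 lower, and the stricter filter of 20 CPM and 50% of cells, added after seeing the data, gave 153 and 149 and an S phase median of -0.43. Scaling to spike-ins moved the median of all genes to -0.04, and centring moved it to 0. At an Mcpt8 threshold of 1000 CPM, 6312 genes were lower and the early granulocyte, S phase and G2 and M phase medians were -1.45, -1.86 and -3.08. There Prss34, Csf1 and Mki67 were at -6.37, -0.37 and -3.08, and Prss34 was at -6.48 at 200 CPM. With 200 CPM or more against under 10 CPM, the early granulocyte median was -1.40.

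Within numbers 1 to 47, with the 1 CPM filter applied anew, the medians were -0.18 for S phase, 0.58 for G2 and M phase, 3.04 for early granulocyte and -2.89 for megakaryocyte genes, and Fos was at 0.41. Within numbers 48 to 94 they were -0.34 for shared basophil and mast cell genes (0.68 in all cells), -0.96 for mediator genes and 4.15 for G2 and M phase, and Fcer1a, Tpsb2 and Spi1 were at -1.31, -0.031 and -0.13. Over the 12 G2 and M phase genes measured in all cells the blocks gave 0.59 and -0.029, and the mean of both blocks gave 0.44. Without each gene's highest cell, 687 genes were higher, and the medians were 0.20 for the shared, -0.43 for S phase, -1.17 for G2 and M phase and -1.07 for megakaryocyte genes, with Tpsb2 at -0.065 and Mki67 at -1.06. Without replicates 29 and 44 the G2 and M phase median was 3.47, with the filter applied anew. Without the filter on low genes the late neutrophil median was -0.022. The causes were not tested.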

Other observations

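The remaining lists had median log2 ratios between 0.04 and 0.37, against -0.18 for all genes. The integrin and adhesion genes were at 0.04 over 18, the chemokine receptors at 0.13 over 9, the glycolysis genes at 0.13 over 15, the cyclin and CDK inhibitor genes at 0.24 over 13, the MYC network and ribosome-making genes at 0.34 over 16 and the survival genes at 0.37 over 10. Ccnd2, which encodes a D-type cyclin, was at 614 CPM in Mcpt8-high and 452 CPM in Mcpt8-low BMCP. Itga4, the partner chain of integrin beta7, was at 1711 and 1347 CPM.

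Some genes of other lineages were carried by both sides. Nkg7, a granule membrane protein of killer cells, was at 5.34, 1176 and 2668 CPM in Mcpt8-high and 3.33, 1028 and 4418 CPM in Mcpt8-low cells. Cx3cr1, the fractalkine receptor gene of monocytes, was at 248 and 305 CPM. Cd69, an early activation marker of leukocytes that is on the basophil list above, was higher with Mcpt8, at 166 CPM in Mcpt8-high and 37.9 CPM in Mcpt8-low cells. It was detected in 9 of 20 Mcpt8-high and 12 of 66 Mcpt8-low cells at equal depth. Trbc1, a T cell receptor constant gene, was at 52.1 and 95.7 CPM, with 41.8% of the Mcpt8-high reads in replicate 66.

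Of the 14 listed granzyme and chymase genes of the chromosome 14 cluster, Mcpt8 left out, 5 reached 1 CPM on a side and 9 did not. Cma2, a chymase gene, was at 10.9 CPM in Mcpt8-high cells with no read in Mcpt8-low cells, and Gzmc, a granzyme gene, was at 1.70 and 1.56 CPM. The median log2 ratio of the 5 was 3.58, the value of Cma2 itself, or 4.97 with Cma2 at its bound. Cma2 passed the filter through the Mcpt8-high side only, and replicate 12 gave 66.8% of the Mcpt8-high reads of Ctsg, so this median says little of the cluster.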
